A study of Sus scrofa with 9 samples.

Results

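Mitochondrial ribosomal proteins were taken as the genes whose symbol in the array's probe annotation begins with MRPL or MRPS and a number. A probe set had to carry that symbol alone, and where a gene had more than 1 probe set, the one with the highest mean over the arrays was kept. This gave 53 genes, from 57 probe sets, among the 12362 named genes and 27558 probe sets of the array. Of these, 35 encode proteins of the large subunit and 18 encode proteins of the small subunit. MRPS18A and MRPS30 were counted with the large subunit, where their proteins sit in spite of their names.

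Samples were taken from longissimus dorsi, a back muscle that runs along the spine, and all pigs were male finishing animals that weighed about 95 kg when the diets began. Pigs ate a lysine-deficient diet (pigs 1, 2 and 3), a lysine-excess diet (pigs 9, 10 and 11) or a lysine-adequate diet (pigs 5, 6 and 7) for 5 weeks, with 3 pigs per diet. Lysine is an essential amino acid that limits protein deposition in growing pigs on cereal diets, and the design asks how its supply bears on gene expression in muscle. Total RNA of each pig was hybridised to 1 whole-transcript array, and neither the breed nor any treatment other than the diet was given in the sources used here.

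Mitochondria keep their own ribosome, which translates the few messenger RNAs of the mitochondrial genome into core subunits of the respiratory chain and ATP synthase. Its ribosomal RNAs are made inside the organelle, while all of its proteins are encoded in the nucleus, made in the cytosol and imported. Some of these proteins have counterparts in the bacterial ribosome and others are specific to mitochondria. In humans, mutations in several of the genes, MRPS2, MRPS22, MRPL3 and MRPL44 among them, cause combined oxidative phosphorylation deficiency, and skeletal muscle and heart are among the tissues affected.

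The deposited values were taken as log2 from their range. They ran between 3.10 and 14.30, with array medians between 5.01 and 5.21. The array of excess pig 11 stood apart from the others: its SD over probe sets was 1.82 against 1.93 to 1.99, and its correlations with the other 8 arrays were 0.904 to 0.956, where other pairs reached 0.992. The weights that limma gave the arrays for how well they fitted their diet's mean were low for all 3 excess pigs, at 0.68, 0.19 and 0.22 for pigs 9, 10 and 11, against 0.90 to 2.46 for the other 6. The 7 measured markers of muscle fibres had mean values between 11.12 and 13.17 and so the defining markers of the labelled tissue were present, while leukocyte markers were at or below 6.16 and erythroid markers at or below 4.74. In whole muscle, fewer cells of a type and less RNA per cell cannot be told apart. Log2 differences are given as the first diet minus the second, with the SE of a limma fit over all 9 arrays, and adjusted p-values are Benjamini-Hochberg values over all 27558 probe sets.

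The transcripts of the mitochondrial ribosome were well within the measured range of the array. Of the 53 genes, 51 had a mean value above the median of all probe sets, which was 5.07. The median over the genes was 7.97. Because each probe set has its own binding strength, these values place a probe set within the range of the array and do not rank the transcripts by amount.

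At the upper end was MRPL52, a mitochondria-specific protein of the central protuberance of the large subunit. It had 11.03, 11.39 and 11.40 in deficient pigs 1, 2 and 3, 11.36, 11.53 and 11.21 in excess pigs 9, 10 and 11, and 11.31, 11.37 and 11.48 in adequate pigs 5, 6 and 7. The 3 diets overlapped. MRPS21, the counterpart of bacterial S21, had 11.09, 10.88 and 10.73 in deficient pigs, 10.49, 11.08 and 10.99 in excess pigs, and 10.62, 10.89 and 11.00 in adequate pigs. Its lowest array was excess pig 9 and its highest deficient pig 1, and the 3 diets overlapped.

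MRPL17, the counterpart of bacterial L17 near the exit of the peptide tunnel, was the steadiest of the bright probe sets. It had 10.70, 10.79 and 10.72 in deficient pigs, 10.70, 10.77 and 10.59 in excess pigs, and 10.65, 10.91 and 10.76 in adequate pigs. MRPL48, a mitochondria-specific protein of the central protuberance, had 9.37, 9.43 and 9.61 in deficient pigs, 9.55, 9.43 and 9.24 in excess pigs, and 9.37, 9.46 and 9.43 in adequate pigs. For both genes the diets overlapped, and every difference between diet means was 0.09 or less on the log2 scale.

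At the lower end, MRPL36, a small zinc-binding protein of the large subunit, lay near the floor of the array. It had 4.03, 3.96 and 4.07 in deficient pigs, 4.08, 4.04 and 3.97 in excess pigs, and 4.06, 4.08 and 4.04 in adequate pigs. Only 8.2% of all probe sets had a lower mean. MRPS6, of the platform of the small subunit, was the other gene below the median of the array. It had 4.43, 4.64 and 4.67 in deficient pigs, 4.64, 4.55 and 4.64 in excess pigs, and 4.65, 4.64 and 4.68 in adequate pigs. A flat profile of 2 probe sets this dim does not show that the transcripts were level.

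**Figure D1:**
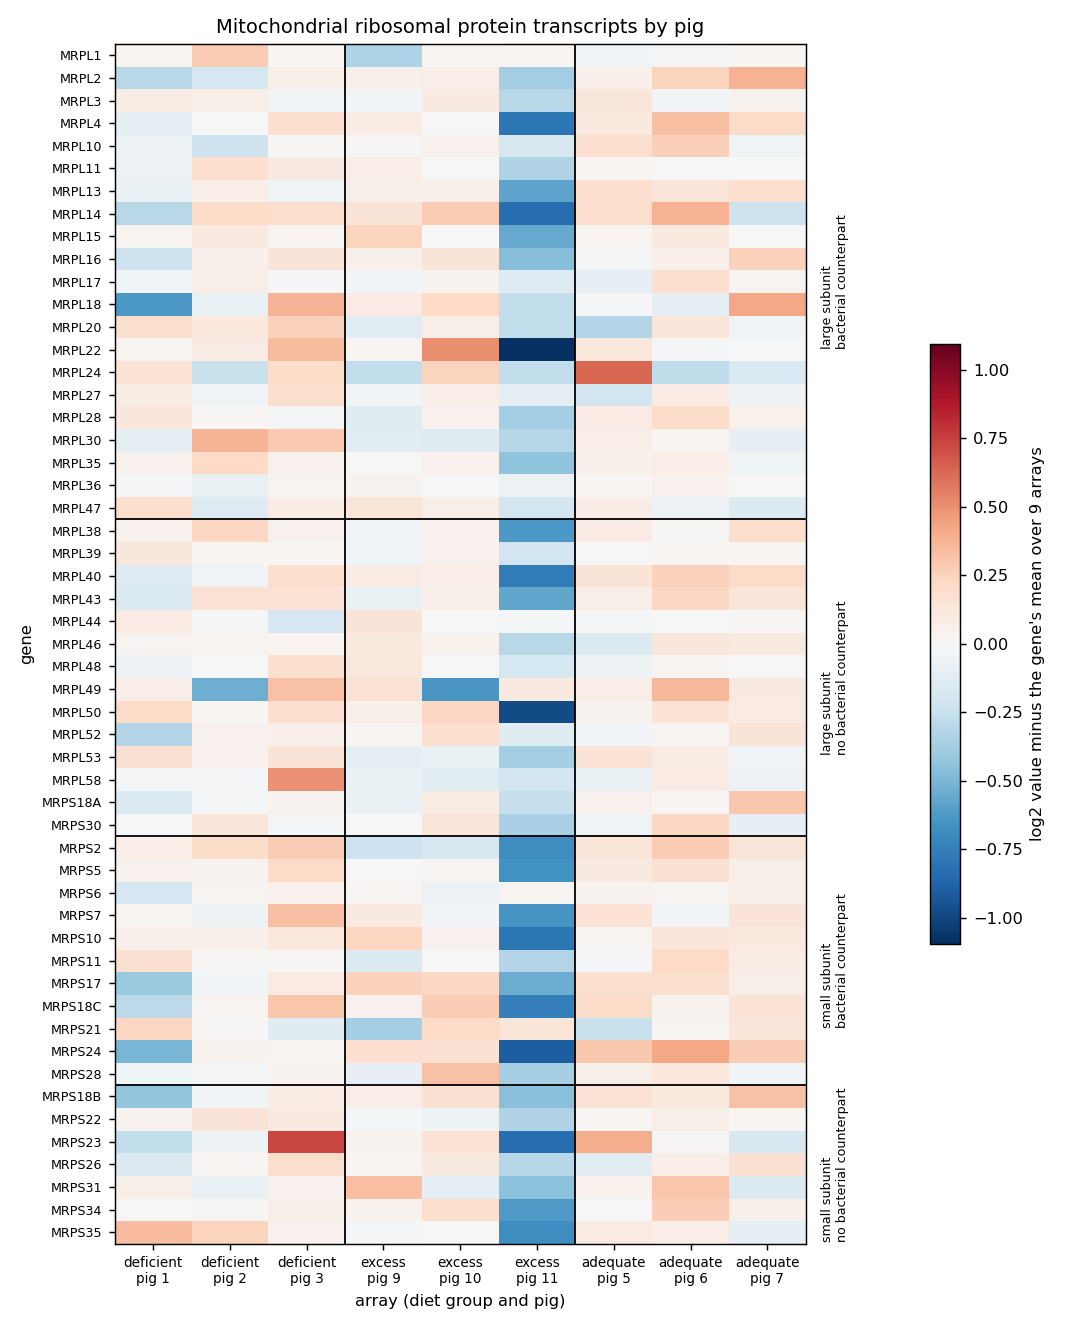
Deviation of each gene's value on each array from that gene's mean over the 9 arrays, in log2 units, for the 53 mitochondrial ribosomal protein genes (rows, grouped by subunit and by whether a bacterial counterpart exists) and the 9 pigs (columns, deficient, excess and adequate). The column of excess pig 11 is the one that stands out: it held the lowest of the 9 values for 41 of the 53 genes.

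The most regular feature of the 53 genes was the array of excess pig 11. It held the lowest of the 9 values for 41 of them (77.4%), against 31.6% of all probe sets, and the highest for none, against 28.8% of all probe sets. The median deviation from each gene's mean was -0.36 on that array. On the other 8 arrays it lay between 0.00 and 0.09: 0.00, 0.02 and 0.09 in deficient pigs 1, 2 and 3, 0.03 and 0.05 in excess pigs 9 and 10, and 0.06, 0.09 and 0.05 in adequate pigs 5, 6 and 7. The median over all probe sets was -0.02 in excess pig 11.

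Both subunits shared this. Small-subunit genes had a median deviation of -0.58 in excess pig 11, with the lowest value there for 16 of 18 genes. Large-subunit genes had -0.31, with the lowest value there for 25 of 35. The genes whose lowest array was another one were MRPL1, MRPL10, MRPL18, MRPL20, MRPL24, MRPL27, MRPL36, MRPL44, MRPL49 and MRPL52 of the large subunit and MRPS6 and MRPS21 of the small. They include the brightest probe sets, MRPL52 and MRPS21, and the dimmest, MRPL36 and MRPS6.

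**Figure D2:**
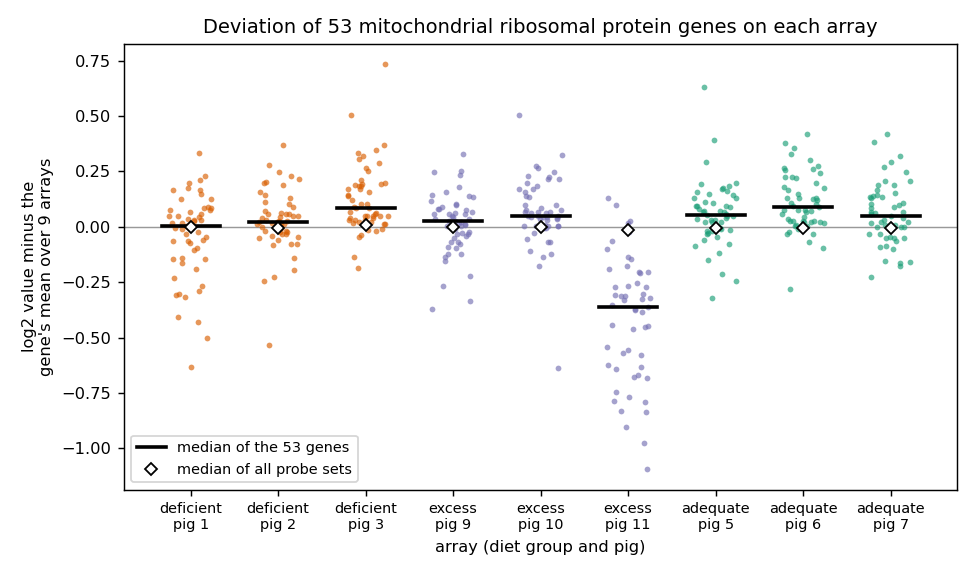
Deviation from each gene's 9-array mean in log2 units (vertical axis) for the 53 genes on each pig's array (horizontal axis, deficient, excess and adequate). Points are genes, black bars are the median of the 53 genes, and diamonds are the median of all probe sets. The bar lies at -0.36 in excess pig 11 and between 0.00 and 0.09 in the other 8 pigs, while the diamonds stay close to 0.

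Set against the other pigs on the same diet, excess pig 11 was lower than the mean of excess pigs 9 and 10 for 49 of the 53 genes. The median of that difference was -0.42, with a range between -1.36 for MRPL22 and 0.34 for MRPL49. Over all probe sets the median was -0.03. The difference varied with the level of the probe set: with all probe sets put in 10 bins of equal size by level, the median was 0.07 to 0.14 in the 4 dimmest bins and -0.18, -0.41, -0.53 and -0.30 in the 4 brightest, from dimmer to brighter. The mitochondrial ribosomal genes in those 4 brightest bins had medians of -0.51 (8 genes), -0.45 (11 genes), -0.60 (18 genes) and -0.29 (14 genes). In the 3 brightest bins, which hold 43 of the 53 genes, their medians lay within 0.07 of those of all probe sets of like level, and in the next dimmer bin they differed from them by -0.34. The cause of what sets this array apart was not tested, and the differences between diets that it moves are given with and without it.

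**Figure D3:**
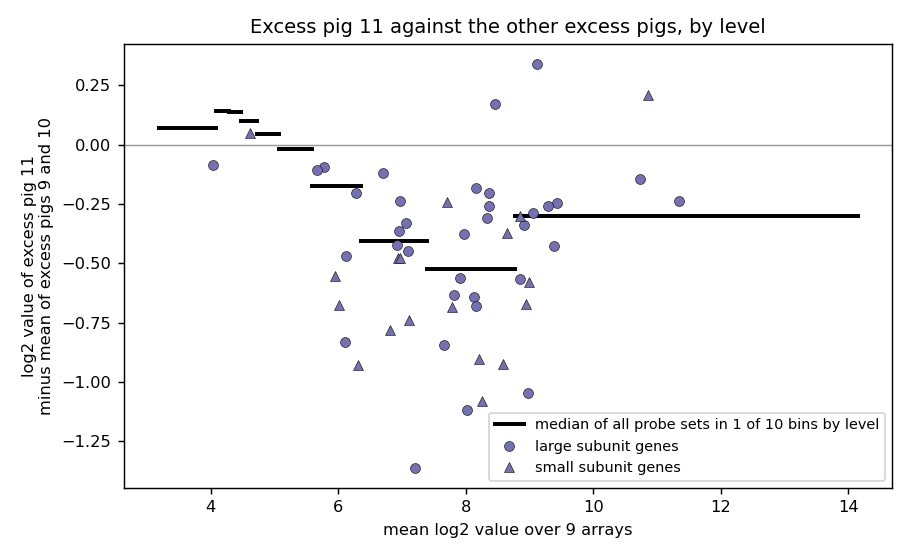
Value in excess pig 11 minus the mean of excess pigs 9 and 10, in log2 units (vertical axis), against the mean level of the probe set over 9 arrays in log2 units (horizontal axis). Circles are large-subunit and triangles small-subunit genes, and black lines are the median of all probe sets in each of 10 bins of the level. The lowest line lies at -0.53 and that of the brightest bin at -0.30, and 49 of the 53 genes lie below 0.

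On the deficient diet the transcripts of the mitochondrial ribosome differed little from those on the adequate diet. The mean lay higher in deficient pigs for 23 genes and lower for 30, against 52.9% and 47% of all probe sets, the median difference was -0.02 log2 (all probe sets: 0.01), and single genes lay between -0.47 (MRPS24) and 0.25 (MRPL20). No member passed an adjusted p of 0.05, and 0% of all probe sets did. By limma's unadjusted p below 0.05, 1 of the 53 genes (1.89%) differed, against 1.85% of all probe sets, and it was lower in deficient pigs, as were 1.01% of all probe sets. The 3 deficient and 3 adequate pigs did not overlap for 4 genes (7.55%), which were MRPL1 above and MRPL13, MRPS18B and MRPS24 below. That share was 6.84% for all probe sets, with 3.77% above and 3.07% below, so neither count stood out from the rest of the array. For MRPL1 the groups all but touched, with deficient pig 3 at 8.47966 and adequate pig 7 at 8.4796. The sign of the median turned, to 0.01, without deficient pig 1 and without adequate pig 6. The unadjusted count was 0 without deficient pig 2, excess pig 9 or excess pig 10, where 1.51%, 2.08% and 1.56% of all probe sets were called. It was 3 (5.66%) without excess pig 11, where 3.54% of all probe sets were called.

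Among large-subunit proteins, the gene with the smallest p in this comparison was MRPL2, the counterpart of bacterial L2, which lies close to the peptidyl transferase centre. It had 6.79, 6.90 and 7.16 in deficient pigs, 7.15, 7.17 and 6.71 in excess pigs, and 7.15, 7.34 and 7.48 in adequate pigs. Deficient pigs 1 and 2 lay below all adequate pigs, and deficient pig 3 was level with adequate pig 5 to within 0.01. The difference between deficient and adequate pigs was -0.37 ± 0.16 (SE), a 1.29-fold lower level, with a limma adjusted p of 1. MRPL10, which anchors the stalk of the large subunit, had 6.21, 6.05 and 6.29 in deficient pigs, 6.29, 6.32 and 6.10 in excess pigs, and 6.45, 6.54 and 6.23 in adequate pigs. Its difference between deficient and adequate pigs was -0.22 ± 0.11, and adequate pig 7 lay inside the range of the deficient pigs.

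MRPL20, the counterpart of the bacterial assembly protein L20, pointed the other way. It had 7.14, 7.08 and 7.21 in deficient pigs, 6.84, 7.03 and 6.70 in excess pigs, and 6.65, 7.10 and 6.93 in adequate pigs. Deficient pig 2 and adequate pig 6 crossed by 0.02, and the difference between deficient and adequate pigs was 0.25 ± 0.13. The deficient pigs were all above the excess pigs, by 0.29 ± 0.13 on average and by 0.21 without excess pig 11.

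In the small subunit, MRPS24, the counterpart of bacterial S3 at the mRNA entry, had 7.76, 8.30 and 8.29 in deficient pigs, 8.44, 8.43 and 7.35 in excess pigs, and 8.55, 8.68 and 8.53 in adequate pigs. The 3 adequate pigs lay close together above all 6 others. The differences from adequate pigs were -0.47 ± 0.30 for deficient and -0.51 ± 0.30 for excess pigs, the second being -0.15 without excess pig 11. Deficient pig 1 and excess pig 11 were each far below the other pigs on their diet. MRPS18B, a mitochondria-specific relative of bacterial S18, had 8.56, 8.96 and 9.08 in deficient pigs, 9.07, 9.17 and 8.54 in excess pigs, and 9.15, 9.10 and 9.32 in adequate pigs. Again the deficient pigs all lay below the adequate pigs, by 0.02 at the nearest, and the difference was -0.32 ± 0.19. Without excess pig 11, whose spread enters the shared error, the differences between deficient and adequate pigs had unadjusted limma p-values of 0.0156 for MRPL13, 0.016 for MRPS24 and 0.0175 for MRPL2, and all 3 were lower in deficient pigs.

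On the excess diet the mean of 49 of the 53 genes lay below that of the adequate pigs, against 49.8% of all probe sets, and that of 4 lay above, against 50.2%. The 4 exceptions were MRPL47, MRPL44, MRPL27 and MRPS21, each within 0.05 above. The median difference was -0.17 log2, against 0.00 for all probe sets, and was -0.16 for large-subunit and -0.25 for small-subunit genes (-0.01 and -0.04 without excess pig 11). Single genes lay between -0.54 (MRPS2) and 0.05 (MRPL47). No member passed an adjusted p of 0.05 (smallest limma adjusted p 0.757), and 0% of all probe sets did. By limma's unadjusted p, 4 genes (7.55%) lay lower and none higher, against 3.56% of all probe sets in either direction and 2.21% lower. For 10 genes (18.9%) the 3 excess pigs all lay below the 3 adequate pigs, against 7.03% of all probe sets in either direction and 3.84% in this one. These were MRPL4, MRPL13, MRPL30, MRPL40, MRPL43, MRPL53, MRPS2, MRPS5, MRPS22 and MRPS24. In every comparison the shares of all probe sets are not matched by level, and 51 of the 53 genes lay above the median level.

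The median and the signs rested largely on excess pig 11. The count of genes whose excess pigs all lay below the adequate pigs cannot show this, because leaving out a pig cannot lower it. Without that pig, 31 genes lay lower and 22 higher in the excess pigs, against 48.8% and 51.2% of all probe sets, and the median was -0.02. The unadjusted call was then left to 1 gene, MRPS2 (1.89%, against 2.44% of all probe sets in either direction and 1.26% lower). The 2 remaining excess pigs lay below all adequate pigs for 10 genes (18.9%) and above them for 1, against 6.36% and 6.63% of all probe sets. Without excess pig 9 the median was -0.26, and without excess pig 10 it was -0.28. The unadjusted count also moved with other pigs: it was 9 (17.0%) without excess pig 10, where 3.78% of all probe sets were called, and 5 (9.43%) without excess pig 9, where 16.8% were. It was 2 without deficient pig 1 or adequate pigs 5 or 7, and 1 without deficient pigs 2 or 3 or adequate pig 6, where 2.12% to 3.13% of all probe sets were called.

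**Figure D4:**
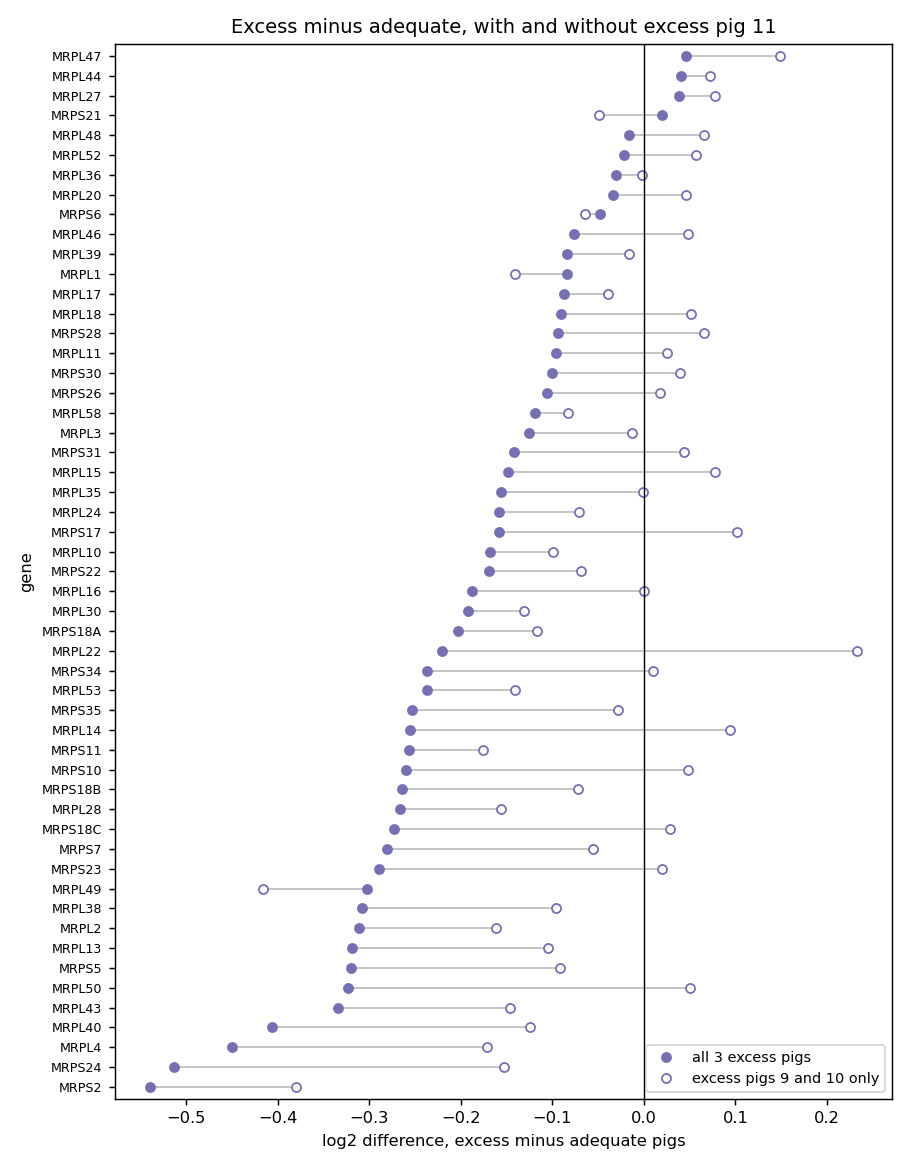
Mean log2 value in excess pigs minus that in adequate pigs (horizontal axis, log2 units) for each of the 53 genes (vertical axis). Filled points use all 3 excess pigs and open points excess pigs 9 and 10 alone, and a line joins the points of a gene. Filled points lie below 0 for 49 genes and open points for 31. MRPS2 lies at -0.54 with all 3 pigs and at -0.38 with 2.

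The gene that kept an unadjusted p below 0.05 without excess pig 11 was MRPS2, the counterpart of bacterial S2 in the small subunit. It had 7.01, 7.13 and 7.20 in deficient pigs, 6.71, 6.75 and 6.25 in excess pigs, and 7.06, 7.21 and 7.07 in adequate pigs. All 3 excess pigs lay below all 6 other pigs, while deficient and adequate pigs overlapped. The difference between excess and adequate pigs was -0.54 ± 0.14 (95% interval -0.86 to -0.22), a 1.45-fold lower level, with a limma adjusted p of 0.757. Between deficient and excess pigs it was 0.54 ± 0.14, with a limma adjusted p of 0.872, and between deficient and adequate pigs it was 0.00 ± 0.14. Without excess pig 11 the differences were -0.38 ± 0.08 between excess and adequate pigs and 0.38 ± 0.08 between deficient and excess pigs. It had the smallest unadjusted F-test p of the 53 genes for any difference among diets, 0.00643 in limma, but its adjusted p was 0.933. By that test 2 genes, MRPS2 and MRPL53, had an unadjusted p below 0.05 (3.77%, against 2.54% of all probe sets). Leaving out excess pig 11 gave 4 (7.55%, against 2.96%), and MRPL53 was not among them. There were also 4 without excess pig 10 (against 2.72%), 3 without excess pig 9 (against 10.7%) and 1 without deficient pigs 2 or 3 or adequate pigs 5 or 6.

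MRPS11, on the platform of the small subunit, had 7.87, 7.72 and 7.71 in deficient pigs, 7.55, 7.70 and 7.38 in excess pigs, and 7.68, 7.92 and 7.79 in adequate pigs. Excess pig 10 lay above adequate pig 5, so the diets overlapped, and the difference between excess and adequate pigs was -0.26 ± 0.10 (-0.18 without excess pig 11). MRPL46, a large-subunit gene that neighbours MRPS11 in the pig reference annotation, differed by -0.08 in the same comparison. MRPL28, the counterpart of bacterial L28, had 7.19, 7.08 and 7.04 in deficient pigs, 6.93, 7.11 and 6.69 in excess pigs, and 7.15, 7.26 and 7.11 in adequate pigs. Excess pig 10 and adequate pig 7 were level at 7.11, and the difference was -0.27 ± 0.11 (-0.16 without excess pig 11).

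MRPL53, a mitochondria-specific protein of the large subunit, had 9.23, 9.11 and 9.20 in deficient pigs, 8.97, 8.99 and 8.69 in excess pigs, and 9.21, 9.14 and 9.01 in adequate pigs. As with MRPS2, the 3 excess pigs were the lowest of the 9. The difference between excess and adequate pigs was -0.24 ± 0.10 and that between deficient and excess pigs 0.30 ± 0.10. Without excess pig 11 they were -0.14 and 0.20. MRPL4, a protein that reaches into the peptide tunnel, had 6.00, 6.10 and 6.27 in deficient pigs, 6.18, 6.11 and 5.31 in excess pigs, and 6.21, 6.43 and 6.31 in adequate pigs. Its difference of -0.45 ± 0.22 between excess and adequate pigs rested largely on excess pig 11, 0.80 below the next excess pig, and was -0.17 without it.

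**Figure D5:**
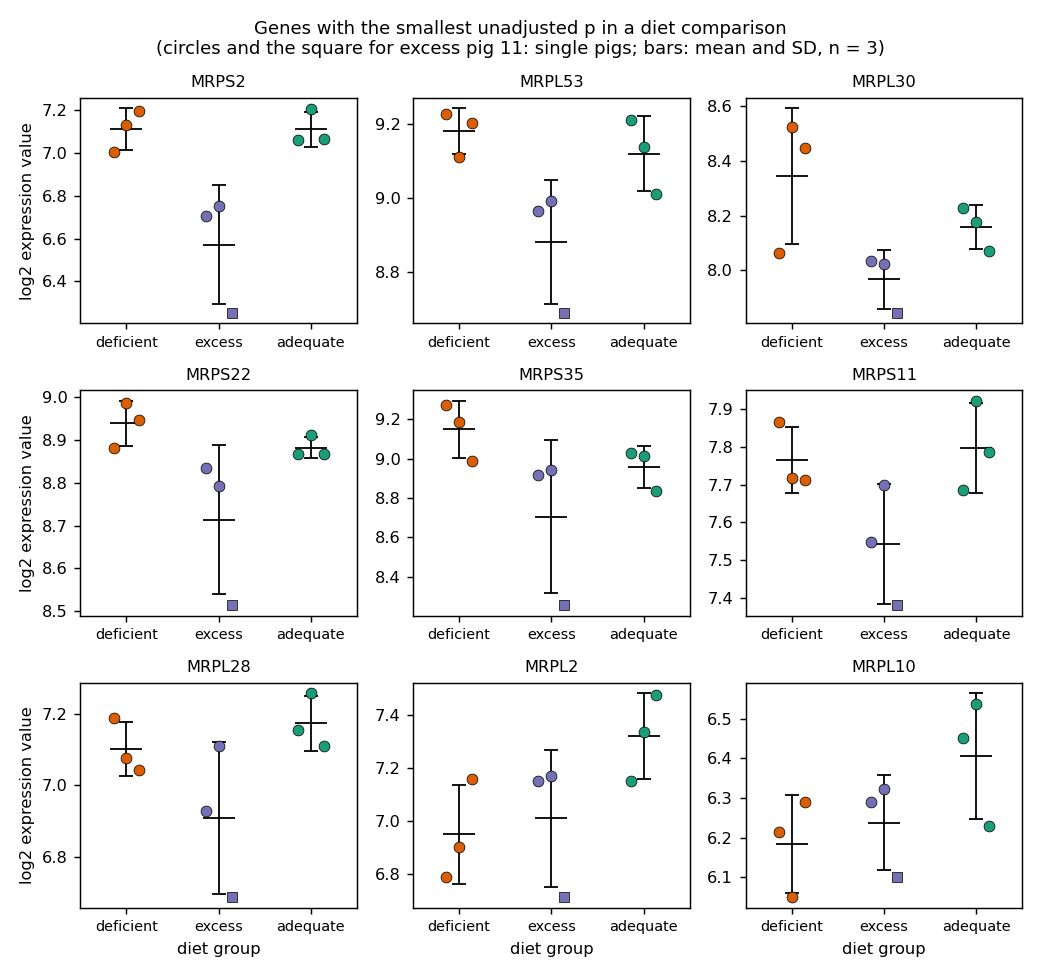
Log2 values (vertical axis) by diet (horizontal axis, deficient, excess and adequate) for MRPS2, MRPL53, MRPL30, MRPS22, MRPS35, MRPS11, MRPL28, MRPL2 and MRPL10. Points are pigs, the square is excess pig 11, and bars are the mean ± SD of 3 pigs. Excess pigs lie below all other pigs for MRPS2, MRPL53, MRPL30 and MRPS22, and the square is the lowest point in every panel other than that of MRPL10.

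Set against each other, the deficient and excess diets gave a like picture, as they share the excess pigs with the comparison above. The mean lay higher in deficient pigs for 44 genes and lower for 9, against 50% of all probe sets in each direction, with a median difference of 0.14 log2 (all probe sets: 0.00) and a range of -0.12 (MRPL18) to 0.54 (MRPS2). No member passed an adjusted p of 0.05 (smallest limma adjusted p 0.872), and 0% of all probe sets did. By limma's unadjusted p, 5 genes (9.43%) lay higher in deficient pigs, against 4.08% of all probe sets in either direction and 2.84% in this one. The groups did not overlap for 10 genes (18.9%, against 6.47% of all probe sets in either direction and 4.28% in this one), all higher in deficient pigs: MRPL20, MRPL30, MRPL35, MRPL53, MRPL58, MRPS2, MRPS5, MRPS11, MRPS22 and MRPS35. Without excess pig 11 the median changed sign, to -0.02, with 24 genes higher and 29 lower, against 50.8% and 49.2% of all probe sets. The groups then did not overlap for 10 genes higher and 3 lower in deficient pigs, against 7.13% and 6.46% of all probe sets. With a pig left out, these counts could not fall. MRPS2 and MRPL53 then kept an unadjusted p below 0.05, and MRPS17, the counterpart of bacterial S17, gained one in the other direction, at -0.36 ± 0.14 (5.66% of the genes in all, against 3.71% of all probe sets, 2.09% higher and 1.62% lower). The count of 5 was 10 (18.9%) without excess pig 10, where 4.55% of all probe sets were called, and stayed 5 without excess pig 9, where 14.4% were. It was 3 without deficient pig 3 or adequate pig 7 and 2 without deficient pigs 1 or 2, where 3.04% to 3.33% were called.

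MRPL30, the counterpart of bacterial L30, had 8.06, 8.53 and 8.45 in deficient pigs, 8.03, 8.02 and 7.84 in excess pigs, and 8.23, 8.18 and 8.07 in adequate pigs. The excess pigs were the lowest 3 of the 9, though deficient pig 1 lay only 0.03 above the nearest of them. The difference between deficient and excess pigs was 0.38 ± 0.13 (0.32 ± 0.14 without excess pig 11). MRPS22, a mitochondria-specific protein of the small subunit, had 8.88, 8.99 and 8.95 in deficient pigs, 8.83, 8.79 and 8.51 in excess pigs, and 8.87, 8.91 and 8.87 in adequate pigs. The excess pigs were the lowest 3 of the 9, 2 of them by small margins, and the difference between deficient and excess pigs was 0.23 ± 0.09 (0.13 without excess pig 11). MRPS35, also specific to mitochondria, had 9.27, 9.19 and 8.99 in deficient pigs, 8.92, 8.94 and 8.26 in excess pigs, and 9.03, 9.01 and 8.84 in adequate pigs. The deficient pigs lay above all excess pigs, by 0.44 ± 0.19 on average and by 0.22 ± 0.10 without excess pig 11.

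MRPL58, a peptidyl-tRNA hydrolase that releases stalled chains and is built into the large subunit, was the third dimmest of the genes. It had 5.64, 5.64 and 6.17 in deficient pigs, 5.59, 5.54 and 5.46 in excess pigs, and 5.59, 5.76 and 5.60 in adequate pigs. Deficient pig 3 alone stood high, the other pigs lay within 0.30 of each other, and the difference between deficient and excess pigs was 0.29 ± 0.14 (0.25 without excess pig 11).

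The 3 genes with the largest SD over the 9 pigs were MRPL22, MRPS23 and MRPS24. MRPS24, described above, had an SD of 0.43, and its adequate pigs lay above all other pigs. MRPL22 and MRPS23 varied mostly within diets. MRPL22, a protein lining the peptide tunnel, had the largest SD, 0.45, with 7.23, 7.29 and 7.55 in deficient pigs, 7.23, 7.70 and 6.10 in excess pigs, and 7.31, 7.19 and 7.20 in adequate pigs. Excess pigs 10 and 11 were its highest and its lowest array. MRPS23, a mitochondria-specific protein of the small subunit, had 6.05, 6.25 and 7.05 in deficient pigs, 6.35, 6.47 and 5.48 in excess pigs, and 6.71, 6.32 and 6.14 in adequate pigs. Its SD was 0.44, and deficient pig 3 and excess pig 11 lay at the ends. This probe set differed by 0.35 between deficient and excess pigs, and by 0.04 without excess pig 11. A second probe set of MRPS23 differed by 0.31 ± 0.32, and by 0.01 ± 0.28 without that pig.

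With excess pig 11 left out, the spread of the mitochondrial ribosomal genes was like that of the array as a whole: the median SD over 8 arrays was 0.129, against 0.131 for all probe sets. With it the values were 0.216 and 0.175. In the order of the diet means, the excess pigs were lowest for 41 of the 53 genes, the deficient pigs for 9 and the adequate pigs for 3. The shares of all probe sets were 39.2%, 26.3% and 34.5% in the same order. With excess pig 11 left out the counts were 20 for excess, 22 for deficient and 11 for adequate pigs. The shares of all probe sets were then 33.9%, 32.3% and 33.8%.

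The precision of 3 pigs per diet bounds what these comparisons can show. The SE of a difference lay between 0.06 and 0.35 log2 over the 53 genes, with a median of 0.16. The 95% intervals lay within 1 log2 unit of 0 for 52 genes between deficient and adequate pigs, for 50 between excess and adequate pigs and for 50 between deficient and excess pigs. With all 9 arrays, the widest reached down to -1.20 for MRPS24 between excess and adequate pigs and up to 1.16 for MRPL22 between deficient and excess pigs. Smaller differences of the order of the SE could not be detected with these arrays.

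Genes that act with the mitochondrial ribosome were described in the same way, and none passed an adjusted p of 0.05 in any comparison. Of the mitoribosome proteins named outside the MRPL and MRPS series, 3 of 5 were measured. DAP3, a GTP-binding protein of the small subunit, had 7.49 ± 0.11 in deficient, 7.22 ± 0.40 in excess and 7.60 ± 0.15 in adequate pigs (SD, n = 3 each). PTCD3, an RNA-binding protein of the small subunit, had 8.76 ± 0.11 in deficient, 8.55 ± 0.31 in excess and 8.77 ± 0.06 in adequate pigs. In both, the excess pigs had the lowest mean and the largest SD of the 3 diets. Without excess pig 11 all 3 proteins still lay lower in excess than in adequate pigs, by a median of 0.08.

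Of 18 translation factors of mitochondria, 10 were measured. Their median differences were -0.01 between deficient and adequate pigs (5 higher, 5 lower), -0.16 between excess and adequate pigs (0 higher, 10 lower) and 0.15 between deficient and excess pigs (7 higher, 3 lower). Leaving out excess pig 11, 4 lay higher and 6 lower in excess than in adequate pigs, with a median of -0.04, and the median between deficient and excess pigs was 0.00. PTRH2, a peptidyl-tRNA hydrolase of the mitochondrial surface, had 9.56 ± 0.15 in deficient, 9.07 ± 0.35 in excess and 9.25 ± 0.03 in adequate pigs (SD, n = 3 each). MTIF2, the initiation factor that brings the first tRNA to the small subunit, had 7.09 ± 0.25 in deficient, 7.41 ± 0.23 in excess and 7.42 ± 0.05 in adequate pigs, and so lay lowest in deficient pigs.

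Of 29 assembly factors of the mitochondrial ribosome, 17 were measured, and 4 lay higher and 13 lower in excess than in adequate pigs, with a median of -0.11 and 2 unadjusted calls, both lower, where 2.21% of all probe sets were called lower. These were NSUN4, an rRNA methyltransferase, at -0.37 ± 0.15, and MPV17L2, a membrane protein needed for assembly, at -0.27 ± 0.11. Between deficient and adequate pigs the median was -0.08, with 5 higher and 12 lower. Without excess pig 11, 7 lay higher and 10 lower in excess than in adequate pigs, with a median of -0.04. The differences were then -0.22 ± 0.12 for NSUN4 and -0.24 ± 0.12 for MPV17L2, and neither kept an unadjusted p below 0.05.

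Low values in excess pig 11 were also seen in other gene groups. It held the lowest of the 9 values for 36 of 53 nuclear subunits of oxidative phosphorylation and for 19 of 41 cytosolic ribosomal proteins. The share of all probe sets was 31.6%. The 7 measured markers of muscle fibres went the other way, with excess pig 11 lowest for 0 and highest for 3. Between excess and adequate pigs, 15 of the oxidative phosphorylation subunits lay higher and 38 lower (median -0.09), and 29 lay higher and 24 lower (median 0.01) without excess pig 11. For the cytosolic ribosomal proteins, 12 lay higher and 29 lower (median -0.07), and 19 and 22 (median -0.01) without that pig. Among 12 measured genes of mitochondrial protein import, 1 lay higher and 11 lower in excess than in adequate pigs, and 9 higher and 3 lower without it.

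Markers of other cells in the muscle are given beside these results. The mean of 7 of 10 adipocyte markers was 6.50 to 6.77 in deficient, 5.92 to 6.03 in excess and 6.04 to 6.53 in adequate pigs, with LEP the dimmest at 4.41. The mean of 10 of 12 fibroblast markers was 9.23 to 9.76 in deficient, 9.08 to 9.77 in excess and 9.83 to 10.16 in adequate pigs. The mean of 5 of 6 smooth muscle and pericyte markers was 8.51 to 8.69 in deficient, 8.34 to 8.87 in excess and 8.77 to 9.13 in adequate pigs. All 5 had a lower mean in deficient (median -0.31) and in excess pigs (median -0.50, or -0.35 without excess pig 11) than in adequate pigs. The mean of 6 of 9 slow fibre genes, which mark the fibres richest in mitochondria, was 10.95 to 11.36 in deficient, 11.48 to 11.82 in excess and 11.23 to 11.47 in adequate pigs. All 6 slow fibre genes lay higher in excess than in adequate pigs (median 0.29, or 0.30 without excess pig 11). Between deficient and adequate pigs 4 lay higher and 2 lower (median 0.14), with CSRP3, a muscle LIM protein, at -1.80 ± 0.78 and MYL2, a myosin light chain, at -0.01. The part of these cell types in the differences of the mitochondrial ribosomal genes was not tested.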

How the data were processed

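Total RNA of longissimus dorsi from 9 pigs was labelled and hybridised to 1 GeneChip whole-transcript array each, per the labels' protocols. The authors deposited 1 table of normalized values for 27558 probe sets. The deposited values were taken as log2, from their range, since no header states the base. The submitters' processing notes name GCOS 1.2 and Partek, and the background correction, summarisation and normalization were not given in the sources used here. Scanner files were not analysed here, so depth over background is not given, and the number of arrays limits the precision.

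Gene names came from the platform's annotation (13323 probe sets with 1 symbol, 357 with several, 13878 unnamed here), and 1 probe set that carried MRPS28 beside another symbol was left out. All 53 gene IDs were in the pig gene table. MRPL15, MRPL40 and MRPS18B each have 2 probe sets with identical values. Some genes also carry exactly the same value on 2 to 4 arrays, at times across diets. Examples are MRPL28, at 7.10952 in excess pig 10 and adequate pig 7, and MRPL39, at 8.39444 on 4 arrays. The cause of these repeats was not tested, and exact ties and very small margins between pigs should be read with that in mind. The fit used lmFit and eBayes of limma 3.58.1 under R 4.3.3 (1 mean per diet over 9 arrays, two-sided tests, Benjamini-Hochberg over all probe sets, threshold 0.05), after the fit was tested on simulated data. No filter was applied. Genes were given by array if they had 1 of the 5 smallest unadjusted p-values of a comparison, 1 of the 4 highest or 3 lowest levels or 1 of the 3 largest SDs, and genes of other lists by the smallest p-values. The 95% intervals are limma's. Alternatives were quantile normalization, median centring, array weights, the array SD as a covariate, a filter on dim probe sets, other moderation, fewer arrays and leaving out each pig. The members and lists were chosen with earlier results of these data known. Promoter and protein sequences were not used here.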

Additional observations from a re-analysis of the deposited data

How the results depend on the processing

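No gene of the mitochondrial ribosome passed a limma adjusted p of 0.05 under any setting tried, so the counts here are at an unadjusted p below 0.05. The shares of all probe sets called by the same rule are given after each set of counts. For any difference among diets, then deficient pigs set against adequate pigs, excess pigs against adequate pigs and deficient pigs against excess pigs, the counts were 2, 1, 4 and 5 (2.54%, 1.85%, 3.56% and 4.08%). In the same order they were 1, 2, 1 and 5 with the array SD as a covariate (5.01%, 4.8%, 4.01% and 6.26%), and 2, 5, 2 and 3 with array weights (3.96%, 8.01%, 0.987% and 1.65%). They were 1, 0, 2 and 4 without the dimmest 25% of probe sets (2.62%, 1.78%, 3.45% and 4.41%), and 1, 0, 1 and 4 with an intensity trend (2.39%, 1.76%, 3.43% and 3.91%). They were 1, 0, 2 and 4 with median centring (2.07%, 1.26%, 2.98% and 3.64%), and 1, 1, 1 and 3 with quantile normalization (2.89%, 2.1%, 3.3% and 4.59%). Without moderation they were 2, 0, 3 and 4 (2.45%, 2%, 3.28% and 3.67%). With only the 6 arrays of a pair of diets they were 3, 1 and 4 for the pairs (3.41%, 2.15% and 2.65%). Leaving out 1 pig gave 1 to 4, 0 to 3, 1 to 9 and 2 to 10, and the shares of all probe sets were 2.06% to 10.7%, 1.33% to 3.54%, 2.12% to 16.8% and 3.04% to 14.4%. The cause of these shifts was not tested. The median difference between deficient and adequate pigs was 0.00 with quantile normalization and 0.01 with the covariate. The median between excess and adequate pigs was -0.01 with the covariate, -0.12 with quantile normalization and -0.23 with median centring, which moves the median of all probe sets by -0.06. That between deficient and excess pigs was 0.00, 0.05 and 0.19. For MRPS2 the difference between excess and adequate pigs lay between -0.63 and -0.36 over all settings, with limma adjusted p-values between 0.264 and 1. No paired analysis was possible because the labels give no link between pigs on different diets. The 3 pigs per diet, an unstated normalization and dim probe sets limit what can be read from these values.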
